A study of Mus musculus with 12 samples.

Results

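The quantity described here is the part of the day-night change that was not shared by ribosome-bound and unbound RNA of the mouse choroid plexus. For each gene, the change from 9am to 9pm in RNA bound to a tagged ribosomal subunit (TRAP) was set against the same change in the RNA left in the supernatant. The difference of these changes was taken from the group means of log2(FPKM + 1), with 3 libraries in each of 4 groups, so all 12 libraries of the series entered it. It was computed for the 11156 genes with a mean FPKM above 1, of 24327 genes in the table, of which 9753 were listed at 0 in every library. FPKM counts fragments relative to the length of the transcript and to the mapped reads of the library. A positive difference means that TRAP moved upward relative to the supernatant between 9am and 9pm, and a negative one that the supernatant did. The rule used no measured value, so every gene was a member.

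The libraries came from the choroid plexus of male mice aged 60 days that carried FoxJ1:cre together with bacTRAP (EGFP:L10a), in which Cre switches on ribosomal protein L10a fused to EGFP. All 4 groups shared both alleles: TRAP at 9am, TRAP at 9pm, supernatant at 9am and supernatant at 9pm. By the study's methods, each pool held the lateral ventricle choroid plexus of 3 mice kept on a cycle of light and dark, and the times fell 2 h after lights on and 2 h after lights off. A TRAP and a supernatant library with the same number and time carry one animal number in the labels, and such a pair of libraries is called a pool below. Foxj1 marks ciliated epithelium, so the tag limits TRAP to ribosomes of cells that expressed Cre. The supernatant holds the RNA of those cells that was not pulled down and all RNA of the others, and it is called unbound here. Mice without Cre were not analysed here.

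The choroid plexus is a sheet of epithelium inside the brain ventricles that makes most of the cerebrospinal fluid and secretes proteins into it, transthyretin above all. In ribosome affinity purification, an antibody to the tag pulls down ribosomes with the messenger RNAs on them. The RNA that stays behind is a mixture of untranslated messages, messages on ribosomes that were not pulled down, nuclear RNA and RNA of untagged cells. A message that becomes more abundant in the cell enters both fractions, whereas a message that moves on or off the ribosomes shifts one fraction against the other. The difference between the changes is the quantity that such a shift would move, and it is also moved by any other cause that touches only one fraction.

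Mir546, a microRNA gene, was the single gene called, with a higher difference. A call needed a limma p adjusted by the Benjamini-Hochberg method under 0.05 and an absolute difference above 0.4 on the log2 scale, the size the study's methods used between times. This made 1 higher call (0.00896% of genes tested) and 0 lower calls (0% of genes tested). At an unadjusted limma p under 0.05, 295 genes were higher (2.64%) and 134 lower (1.2%). The pools of 9pm all lay above those of 9am in the TRAP minus supernatant value of 522 genes (4.68%), and all below them in 403 genes (3.61%). The balance of the directions depended on the scaling. With small RNA rows left out and FPKM rescaled, 225 genes were higher and 191 lower at an unadjusted p under 0.05, and the pools were apart upward in 407 genes and downward in 534. After quantile normalization these counts were 260 and 181, and 483 in either direction. The median difference over all genes tested was 0.11. That median was -0.05 after quantile normalization, -0.08 with small RNA rows left out, and 0.06 after median ratio scaling, so gene groups are given below relative to it.

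A large difference between the fractions favours opposite changes by construction, so the following counts are a description. The fitted TRAP change was upward and the supernatant change downward for 279 of the 295 higher genes, against 2923 (26.2%) of all genes tested. The reverse held for 126 of the 134 lower genes, against 2373 (21.3%) of all. The TRAP change was the larger of both in 62.7% of the higher genes and 41.8% of the lower ones, against 51.9% of all genes tested. Taken one fraction at a time, limma called 0 genes higher (0%) and 0 lower (0%) at 9pm in TRAP, with 379 higher and 140 lower at an unadjusted p under 0.05. In the supernatant it called 0 genes higher (0%) and 1 lower (0.00896%), again Mir546 (adjusted p = 0.0256, limma), with 220 higher and 205 lower at an unadjusted p under 0.05. The higher genes had a median longest transcript of 2429 nt and the lower ones of 2796 nt, against 3446 nt for all genes tested, and transcripts under 1000 nt made up 10.4%, 7.75% and 5.01% of them. A group was at 0 in all 3 libraries for 33 of the 295 higher genes (11.2%) and 17 of the 134 lower ones (12.7%), beside 8.87% of all genes tested. The median 95% interval of a gene's difference reached 3.0 log2 units to each side, and 1.16 units for the 480 genes with a mean FPKM above 100, so most differences of moderate size were not detectable at this precision.

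**Figure D1:**
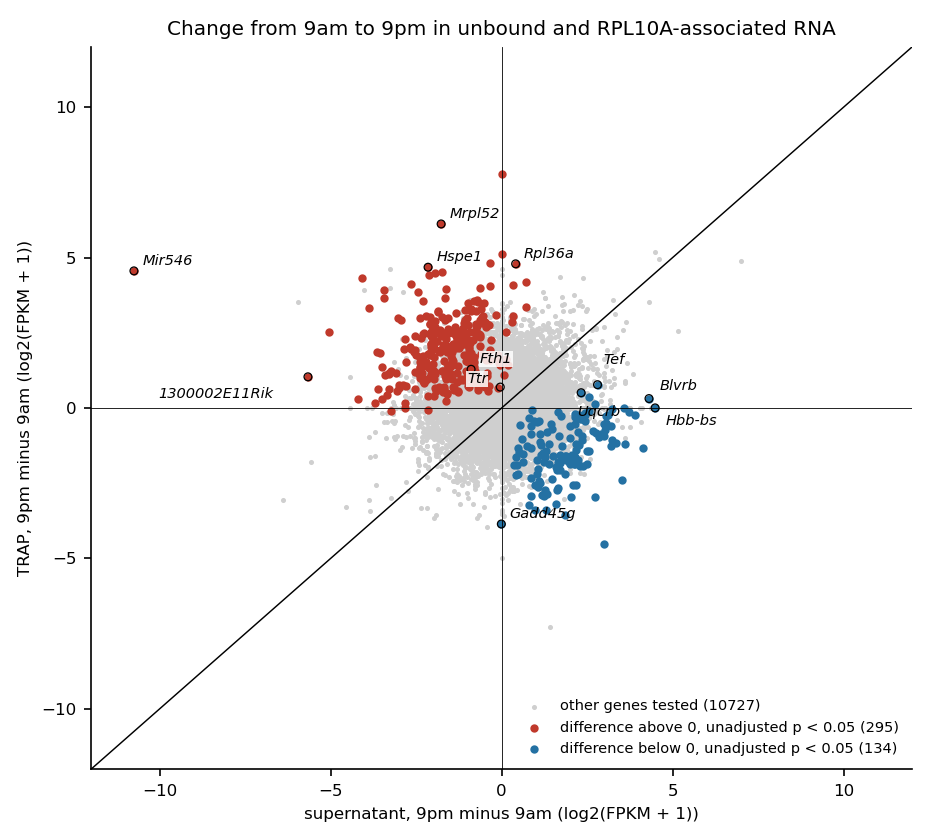
Each point is a gene, placed by its 9pm minus 9am difference of means of log2(FPKM + 1) in the supernatant (horizontal) and in TRAP (vertical), with 3 libraries per group; on the diagonal line both changes are equal. The 295 genes in red and 134 in blue (unadjusted limma p under 0.05) lie away from the diagonal, mostly with opposite signs on the axes, and Mir546 lies far to the left at -10.75 in the supernatant and 4.56 in TRAP.

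Mir546 fell in the supernatant between 9am and 9pm and was well above 0 in TRAP only at 9pm. In the supernatant it was at 572, 3026 and 2945 FPKM at 9am and at or next to 0 in all 3 libraries at 9pm. In TRAP it was at or next to 0 in all 3 libraries at 9am and at 0, 259.6 and 49.2 FPKM at 9pm. The supernatant groups did not overlap, whereas 1 TRAP library of 9pm was at the level of 9am. On the log2(FPKM + 1) scale the difference was 15.31 with an SE of 2.01 and a 95% interval of 11 to 19.62 (adjusted p = 0.0236, limma). The TRAP minus supernatant values of the pools were -9.16, -11.56 and -11.52 at 9am and 0, 8.03 and 5.65 at 9pm, and an exact two-sided permutation test of these 6 values gave p = 0.1, the smallest that 3 pools against 3 allow and the value for every gene whose pools are said to lie apart. Since groups of Mir546 were listed at 0, its fitted size depends on the pseudocount of 1 and no fold is given, and the same holds for the other genes with a group at 0 named below.

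Mir546 (chr10:126998440-126998560, plus strand, mm10) lies inside an exon of Ctdsp2, in its UTR and on the same strand. Ctdsp2 encodes a small phosphatase that acts on the C-terminal domain of RNA polymerase II, and it was looked at only because it hosts Mir546. Its FPKM was 11.6, 0.409 and 5.88 in the supernatant at 9am and 17.1, 30.1 and 17.2 at 9pm, so the host was higher in the fraction and at the time where Mir546 was at 0. In TRAP, Ctdsp2 was at 8.17, 16.6 and 5.23 at 9am and 4.49, 4.22 and 10.9 at 9pm, with overlapping groups. The difference of Ctdsp2 was -2.65 with an SE of 1.23 (adjusted p = 0.988, limma). A fragment from this exon can belong to either gene, and how the table divides such fragments between the 2 genes was not tested.

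Other short RNAs stood among the genes of lowest p with a mean FPKM above 100, and their values jumped between 0 and up to 7228 FPKM within a group. The mature sequences from RefSeq (GRCm38.p6) are shown for the 4 microRNA genes the rule for named genes picked, with the seed (bases 2 to 8) in capitals, because the seed sets which messages a microRNA pairs with.
miR-546: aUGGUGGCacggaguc
miR-703: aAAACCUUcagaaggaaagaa
miR-8094: aACUGAAGgacaacgagaaga
miR-682: cUGCAGUCacagugaagucug
No 2 of these seeds were the same. The FPKM of these rows counts fragments assigned to the microRNA gene and is not read here as a level of the mature microRNA. The mature miR-546 sequence lies at chr10:126998471-126998486 on the plus strand. The mature miR-703 lies at chr5:98475616-98475636 on the minus strand, within the gene Cfap299 that runs on the opposite strand. For miR-8094 the position is chr17:35251314-35251334 on the plus strand, within a coding exon of Ddx39b, an RNA helicase gene. For miR-682 it is chr13:75645119-75645139 on the plus strand, within the processed pseudogene Gm4149.

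Mir703 was at 363, 489.5 and 0 FPKM in TRAP at 9am and 209.5, 1364 and 4845 at 9pm, and at 115, 50.9 and 66.0 in the supernatant at 9am and 0, 0 and 82.1 at 9pm (difference 8.39, adjusted p = 0.988, limma). Mir8094 was detected in 4 of the 12 libraries, at 581 and 6357 FPKM in TRAP at 9am, 214.5 in the supernatant at 9am and 4121 in the supernatant at 9pm, and at 0 in the other libraries (difference -8.69, adjusted p = 0.988, limma). Mir682 was likewise detected in only 3 libraries, at 199 and 176 FPKM in the supernatant at 9am and 192 in TRAP at 9pm. The groups of all of these overlapped in at least one fraction. Scarna17, a guide RNA of the Cajal body, was at 7228 and 1453 FPKM in 2 TRAP libraries of 9pm and at 0 in the other 10 libraries. Of the 1161 microRNA genes listed, 45 passed the filter. At an unadjusted limma p under 0.05, 3 of these were higher (6.67%) and 0 lower (0%), beside 2.64% and 1.2% of all genes tested. Their median difference lay 0.35 below that of all genes, and between -1.81 and 1.02 relative to it with one pool left out. MicroRNA genes took 31.9% to 75.4% of the summed FPKM of a library, since FPKM divides by their short length, and this share was not used as an abundance.

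Among protein-coding genes with a higher difference, the lowest p belonged to Mrpl52, Hspe1, Hnmt, Tmem205 and Fth1, although none passed the adjusted threshold in the fit without a block. Beside Mir546, Mrpl52 and Hspe1, every gene named here had an adjusted limma p of 0.988 or more. Mrpl52, a protein of the large subunit of the mitochondrial ribosome (chr14:54426909-54429756, plus strand), was at 0, 0.541 and 0 FPKM in TRAP at 9am and 29.2, 115 and 146 at 9pm. In the supernatant it was at 24.3, 76.9 and 29.8 at 9am and 1.295, 17.6 and 35.1 at 9pm. The TRAP groups of Mrpl52 were far apart and the supernatant groups overlapped. The difference was 7.89 with an SE of 1.34 (adjusted p = 0.196, limma), and it passed the threshold when the pools entered as a block (adjusted p = 0.0451, limma).

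Hspe1, the cochaperonin that closes the mitochondrial folding chamber, was at 4.07, 5.39 and 1.16 FPKM in TRAP at 9am and 149.5, 68.2 and 112 at 9pm. Its supernatant values were 65.4, 32.9 and 41.2 at 9am and 46.1, 0.232 and 17.7 at 9pm. All TRAP libraries of 9pm were above all of 9am, and the supernatant groups overlapped (difference 6.83, SE 1.42, adjusted p = 0.952, limma). Hnmt, which inactivates histamine by methylation, was at 0.711, 10.1 and 0 FPKM in TRAP at 9am and 22.3, 40.6 and 37.6 at 9pm, and at 36.9, 34.9 and 18.6 in the supernatant at 9am and 0, 0.182 and 16.8 at 9pm. For Hnmt neither fraction overlapped between times, and they lay in opposite order (difference 7.08, adjusted p = 0.988, limma). Tmem205, a membrane protein gene, had TRAP values of 0, 4.13 and 14.5 FPKM at 9am and 154, 73.8 and 65.2 at 9pm, while its supernatant groups overlapped (difference 6.53).

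Fth1 on chromosome 19, which encodes the heavy chain of ferritin, the iron store of the cell, from a message that iron-regulatory proteins can hold off ribosomes, was the most abundant protein-coding gene among the 10 with the lowest p and a higher difference. In TRAP its FPKM was 243, 178 and 69.4 at 9am and 303, 398 and 368 at 9pm. In the supernatant it was 1152, 916 and 1023 at 9am and 650.2, 374 and 693 at 9pm. The groups did not overlap in either fraction and moved toward each other: the TRAP mean went from 163 ± 87.8 to 356 ± 48.6 and the supernatant mean from 1030 ± 118 to 572.5 ± 173 (SD, 3 libraries each). The difference was 2.18 with an SE of 0.55 and a 95% interval of 1.0 to 3.36 (adjusted p = 0.988, limma). It stayed between 1.66 and 2.55 when any library or pool was left out. Fth1 has processed copies in the genome with which it can share reads.

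The remaining genes among the 10 of lowest p with a higher difference were Rpl36a, Exosc1, Znrd1 and 1300002E11Rik. Rpl36a, a protein of the large cytosolic subunit, was at 17.2, 28.2 and 39.0 FPKM in TRAP at 9pm and at 0 in all other libraries but one, at 1.35 in the supernatant at 9pm (difference 4.38). Exosc1, a subunit of the RNA exosome, was at 11.9, 22.7 and 12.7 in the supernatant at 9am and at 0, 0 and 1.14 at 9pm, with overlapping TRAP groups (difference 5.50). Znrd1, a subunit of RNA polymerase I, was at 0 in TRAP at 9am and at 57.9, 59.1 and 0 at 9pm, which overlapped. Its supernatant values of 19.4, 6.41 and 30.6 at 9am and 0, 0 and 2.71 at 9pm were apart (difference 7.37). The long noncoding RNA 1300002E11Rik went the way of Mir546, from 110, 133 and 46.3 FPKM in the supernatant at 9am to 0, 0 and 4.40 at 9pm (difference 6.70).

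**Figure D2:**
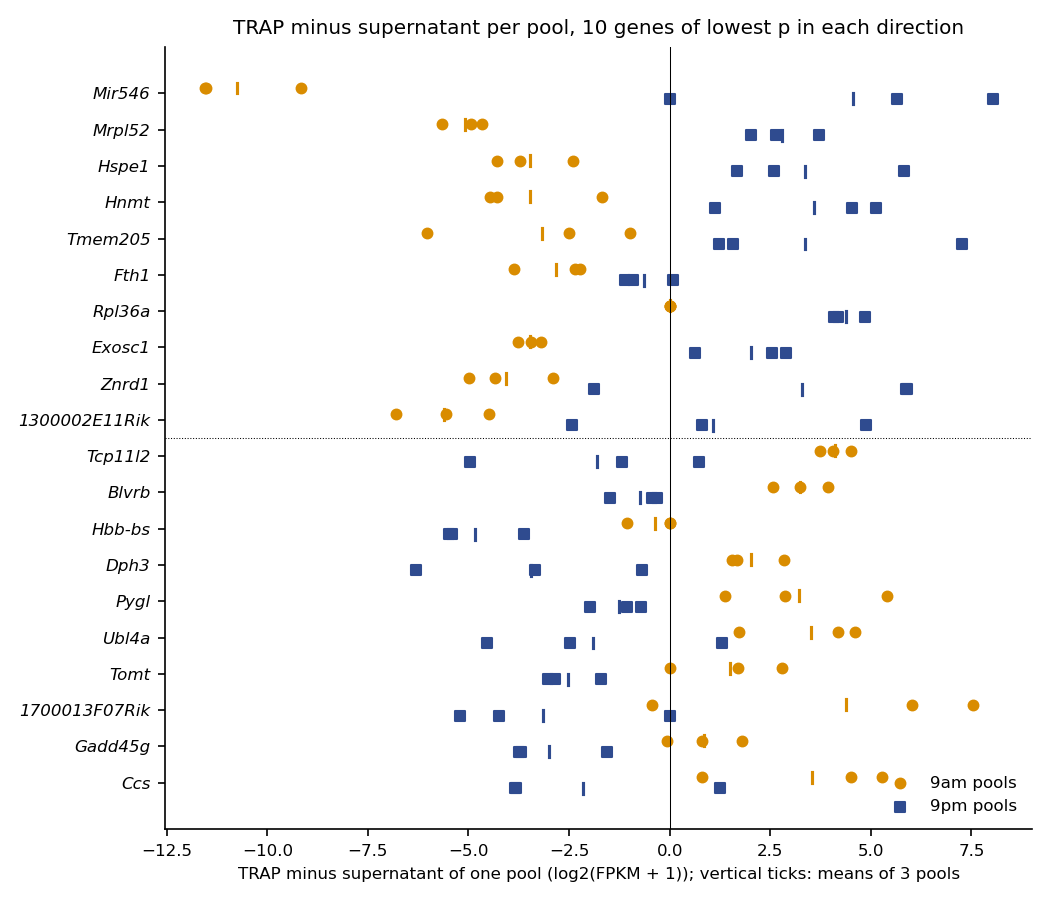
Each row is one of the 10 genes of lowest p in each direction; circles are the 3 pools of 9am, squares the 3 pools of 9pm, and ticks their means, for TRAP minus supernatant of one pool in log2(FPKM + 1). The pools of the 2 times do not overlap except in 1700013F07Rik and Ccs, and Mir546 spans the widest range, from -11.56 to 8.03.

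Of the 10 genes of lowest p with a lower difference, none passed the adjusted threshold. In several the supernatant groups were apart, higher at 9pm, while the TRAP groups overlapped. Blvrb, biliverdin reductase B of haem breakdown, was at 0, 0 and 0.701 FPKM in the supernatant at 9am and 21.8, 18.6 and 28.6 at 9pm. Its TRAP values of 8.49, 14.3 and 9.07 at 9am and 7.22, 14.8 and 20.7 at 9pm overlapped (difference -3.99, SE 1.03). Hbb-bs, an adult beta-globin, was at 41.8, 43.9 and 11.3 in the supernatant at 9pm, at 1.09, 0 and 0 there at 9am, and at or next to 0 in all TRAP libraries (difference -4.49, SE 1.18). Pygl, glycogen phosphorylase of the liver type, was at 0.0605, 0 and 2.27 in the supernatant at 9am and 15.7, 12.7 and 10.6 at 9pm. Its TRAP groups overlapped, with a fitted change of -1.27 (difference -4.47).

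Gadd45g, a growth arrest and stress gene, was the reverse case with a difference on the TRAP side. It was at 42.2, 16.6 and 53.2 FPKM in TRAP at 9am and at 0.33, 7.90 and 0.151 at 9pm, with no overlap, while the supernatant held 43.9, 9.14 and 14.6 at 9am and 16.9, 25.2 and 13.9 at 9pm (difference -3.85, SE 1.22). Ubl4a, which hands tail-anchored proteins to their membrane targeting route, was at 7.24, 23.5 and 18.9 in TRAP at 9am and at or next to 0, 1.46 and 0 at 9pm (difference -5.41). Ccs, the copper chaperone of superoxide dismutase 1, had a difference of -5.68, and its pools overlapped. Dph3, of diphthamide synthesis on elongation factor 2, had a difference of -5.48. For Tcp11l2, Tomt and 1700013F07Rik it was -5.90, -4.01 and -7.53.

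Among the 480 genes with a mean FPKM above 100, where the interval of a difference was narrowest, 24 were higher (5%) and 4 lower (0.833%) at an unadjusted limma p under 0.05, beside 2.64% and 1.2% of all genes tested. The pools were apart upward in 25 of them (5.21%) and downward in 15 (3.12%), shares near the 4.68% and 3.61% of all genes. All these counts used FPKM as deposited. Over all genes the balance of directions depended on the scaling, and the abundant genes were not counted under other scalings. Rps9, of the small cytosolic ribosomal subunit, was at 34.7, 65.7 and 45.1 FPKM in TRAP at 9am and 216, 169.8 and 82.0 at 9pm, with no overlap, and its supernatant groups overlapped at 93.9 to 152 and 55.6 to 185 (difference 1.94, SE 0.67). Ndufs6 of respiratory complex I was at 22.8, 217 and 75.6 in TRAP at 9am and 319.7, 288 and 146 at 9pm, and at 234, 259.7 and 77.0 in the supernatant at 9am and 79.9, 119.9 and 67.4 at 9pm (difference 2.64). Both fractions of Ndufs6 overlapped between times, yet the TRAP minus supernatant values of its pools did not.

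Maob, the mitochondrial monoamine oxidase B, was at 122, 138 and 99.1 FPKM in TRAP at 9am and 232, 226 and 149.7 at 9pm, and at 121.5, 122.7 and 98.8 in the supernatant at 9am and 69.2, 116 and 83.3 at 9pm. TRAP groups were apart, supernatant groups overlapped, and the difference was 1.11 with an SE of 0.45. The secreted peptide gene 1500015O10Rik, also named Ecrg4, was at 236, 183 and 59.1 in TRAP at 9am and 449, 195 and 264 at 9pm, and at 576, 270.1 and 150 in the supernatant at 9am and 204, 86.4 and 156 at 9pm. Within each fraction its groups overlapped, but its pools at -1.29, -0.56 and -1.33 at 9am were all below those at 1.14, 1.17 and 0.76 at 9pm (difference 2.08, SE 0.79). Defb11, a beta-defensin gene, and Atp5j2, a subunit of ATP synthase, had differences of 6.77 and 3.0.

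The abundant genes lower at an unadjusted p under 0.05 were Cuta, Uqcrb, Lgals1 and Psmd4. Uqcrb, a subunit of respiratory complex III, was at 18.5, 25.3 and 46.1 FPKM in the supernatant at 9am and 200.1, 106 and 141 at 9pm, and at 118, 212 and 272 in TRAP at 9am and 355, 399 and 139.5 at 9pm. Its supernatant groups were far apart and its TRAP groups overlapped (difference -1.82, SE 0.67). Psmd4, a ubiquitin receptor of the proteasome, was at 72.8, 61.5 and 107 in the supernatant at 9am and 120.4, 146 and 177 at 9pm, beside TRAP values between 165 and 216 at both times (difference -0.97, SE 0.43). Cuta and Lgals1, which encodes galectin-1, had differences of -2.63 and -3.53. Lgals1 was at 0.266, 70.4 and 59.1 FPKM in the supernatant at 9am and 188, 134 and 120 at 9pm. With a library left out its difference went as far as -1.64. The calcium pump gene Atp2b3 had a difference of -0.72 and missed the unadjusted threshold, as did Apoc1, Peg3, Tsc22d1, B4galt6 and Mir8094.

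**Figure D3:**
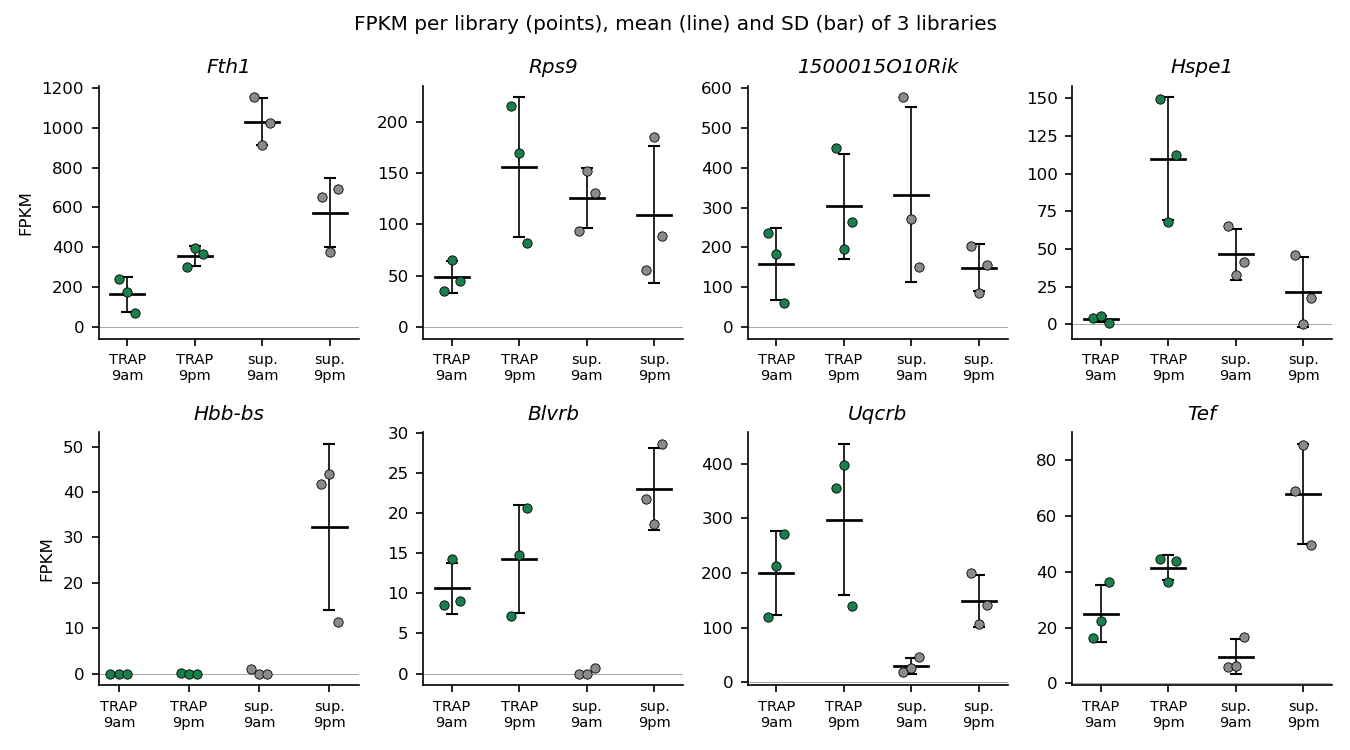
FPKM of 8 genes in each library, with TRAP in green and supernatant in grey; lines and bars are the mean and SD of 3 libraries and are left out where a library was at 0. For Fth1 the TRAP means are 163 and 356 and the supernatant means 1030 and 572.5, without overlap in either fraction, and Uqcrb, Tef and Blvrb show the supernatant of 9pm apart from that of 9am.

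Transthyretin, the main secreted protein of the tissue, showed a difference whose interval included 0. Ttr was at 20922, 31302 and 29741 FPKM in TRAP at 9am and 51514, 48953 and 32933 at 9pm, with no overlap. In the supernatant it was at 37447, 25293 and 21463 at 9am and 30323, 23434 and 26441 at 9pm, with full overlap. The difference was 0.74 with an SE of 0.39 and a 95% interval of -0.11 to 1.58, and its pools overlapped between times (exact two-sided permutation p = 0.2). It ran from 0.33 to 0.98 over the settings and left-out libraries tried.

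The genes for mitochondrial ribosomal proteins held the largest share of members at an unadjusted p under 0.05 among lists of at least 30 tested genes. Of 77 such genes, 76 passed the filter, 50 had a difference above 0, against 6005 of 11156 genes tested, and 9 (11.8%) were higher and 3 (3.95%) lower at an unadjusted p under 0.05, beside 2.64% and 1.2% of all genes. Their median difference was 0.91, or 0.80 above the median of all genes, and 0.77 to 0.85 above it under the other scalings. Beside Mrpl52 the higher members were Mrpl32 (6.29), Mrps33 (5.38), Mrps11 (4.77), Mrps30 (4.18), Mrpl3 (3.72), Mrpl43 (3.62), Mrpl13 (3.47) and Mrpl51 (3.24), and the lower ones Mrps24 (-4.22), Mrpl1 (-4.06) and Mrpl19 (-3.46). Mrpl13 was at 3.94, 55.7 and 0 FPKM in TRAP at 9am and 127, 153 and 84.7 at 9pm, apart, with overlapping supernatant groups at 26.9 to 82.2 and 36.6 to 95.03. The list's median per pool, relative to all genes of that pool, was -0.39, 1.39 and -1.15 at 9am and 0.46, 2.21 and 0.21 at 9pm, so the pools overlapped, and leaving out pool 2 of 9pm took the list's median to 0.08 above that of all genes.

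Subunits of respiratory complex I were above all genes by less. Of 37 genes, 35 passed the filter, and 23 were above 0 (65.7%, against 53.8% of all genes tested). At an unadjusted p under 0.05, 2 were higher (5.71%) and 0 lower, beside 2.64% and 1.2% of all genes. The 2 higher ones were Ndufs6 and Ndufb5, the latter at 8.34, 46.0 and 0 FPKM in TRAP at 9am and 128, 139.6 and 94.6 at 9pm (difference 4.63). The list's median was 0.48 above that of all genes and went to -0.14 without pool 1 of 9am. For 42 of 43 genes of complexes II to V it was 0.22 above, with Atp5j2 higher and Uqcrb lower at an unadjusted p under 0.05, and it ranged from -0.29 to 0.72 with one pool left out. The table held no mitochondrially encoded genes.

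Cytosolic ribosomal proteins, the protein part of the ribosomes that the tag pulls down, were measured in part. Of 87 genes, 63 passed the filter, and 37 of these were above 0 (58.7%, against 53.8% of all genes tested). At an unadjusted p under 0.05, 6 were higher (9.52%) and 1 lower (1.59%), beside 2.64% and 1.2% of all genes. Beside Rps9 and Rpl36a the higher ones included Rps20 (5.88), Rpl35a (4.87) and Rps25 (3.33), and the lower one was Rps2 (-4.50). Rpl35a rested on its supernatant values of 33.2, 157 and 16.2 FPKM at 9am and 0, 1.37 and 25.5 at 9pm, which overlapped, and Rps25 reached at most 12.1 FPKM in any library. The list's median was 0.18 above that of all genes and -0.21 without pool 2 of 9pm, and between 16 and 25 members were at 0 in every library of a TRAP group. These genes have many processed copies, and reads shared with them make single values uncertain.

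Translation factors had a list median 0.24 above that of all genes, between 0.14 and 0.34 when one pool was left out. Of 57, 53 passed the filter, with Eif6 higher (4.03) and Eif3f lower (-3.20) at an unadjusted p under 0.05. Eif6, which keeps the ribosomal subunits apart, was at 20, 33.8 and 17.7 FPKM in the supernatant at 9am and 0, 6.79 and 11.9 at 9pm. In TRAP it was at 32.8, 37.7 and 0.253 at 9am and 33.2, 25.9 and 55.5 at 9pm, which overlapped. Eif3f, of the complex that readies the small subunit, was at 8.61, 25.5 and 96.1 in TRAP at 9am and 2.77, 19.0 and 2.54 at 9pm. The proteasome list was 0.09 above all genes (0.04 below without pool 3 of 9am) with 34 of 39 members tested, and beside Psmd4 its member Psmd12 was higher (1.99).

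**Figure D4:**
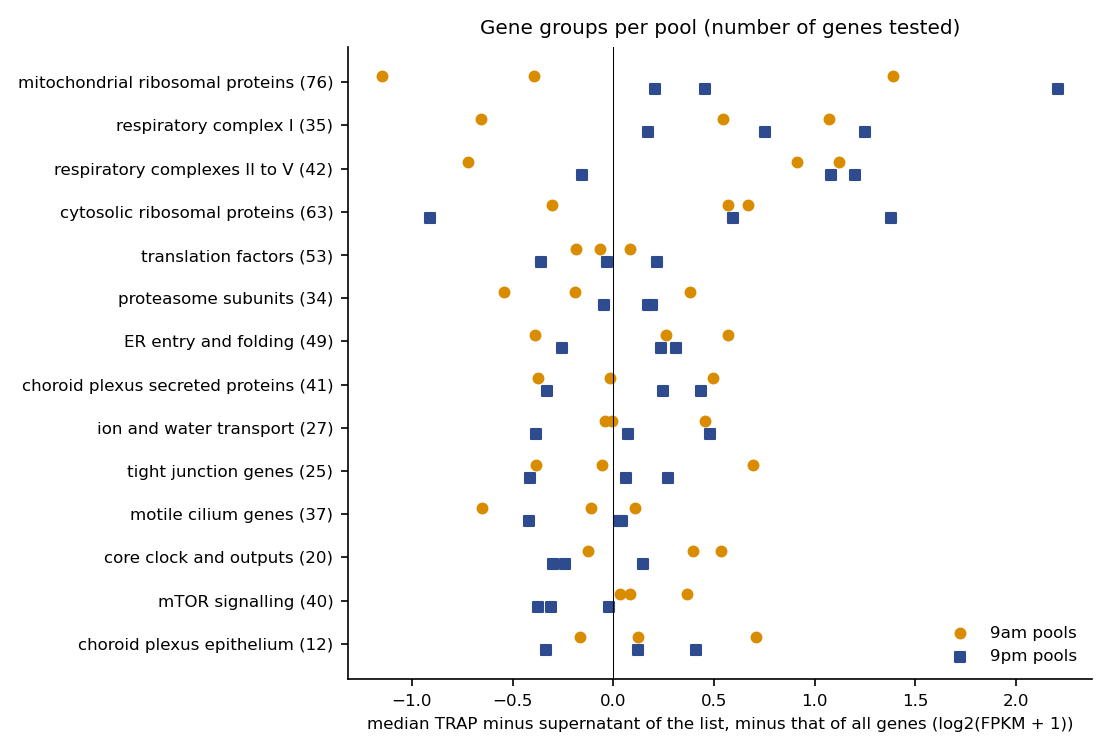
Each symbol is the median over a gene group of TRAP minus supernatant in one pool, minus the median of all genes in that pool, in log2(FPKM + 1); circles are pools of 9am, squares pools of 9pm, and numbers in brackets are genes tested. Among the groups drawn only mTOR signalling has all 3 pools of 9pm below those of 9am, and the mitochondrial ribosomal proteins span from -1.15 to 1.39 among the pools of 9am alone.

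The number of genes detected differed between the paired libraries. TRAP minus supernatant of one pool in the number of genes above 1 FPKM was 256, 1608 and -3457 at 9am and -1078, 2361 and -2148 at 9pm. Pool 2 of each time had the largest excess of genes in TRAP and also the highest value of the mitochondrial ribosomal protein list. Pool 2 was also highest at both times in complex I (1.07 and 1.25) and in cytosolic ribosomal proteins (0.67 and 1.38). In complexes II to V it was highest at 9am (1.12), while pool 1 was highest at 9pm (1.2 against 1.08). Among the other pools of 9am, pool 3, with the lowest excess, was above pool 1 in complex I (0.54 against -0.66), complexes II to V (0.92 against -0.72) and cytosolic ribosomal proteins (0.57 against -0.31). TRAP replicate 3 of 9am had the largest share of tested genes at 0, 34.3%, against 4.47% in the most complete library, and 107 of 2940 genes with a median above 20 FPKM were at 0 there. Many of the genes named above were at 0 in that library, and the part of this in the results was not tested.

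Genes of protein entry into the endoplasmic reticulum and folding there sat at the level of all genes, with a median 0.05 below it (0.21 above without pool 2 of 9pm), 49 of 51 tested, and Sec61g and Sil1 higher and Stt3b lower at an unadjusted p under 0.05. Sec61g, which belongs to the channel that takes new secreted proteins in, was at 0 in TRAP at 9am and at 42.9, 18.9 and 45.8 FPKM at 9pm, with overlapping supernatant groups at 0 to 6.38 and 0 to 13.7 (difference 5.08, SE 1.59). Stt3b, of the oligosaccharyltransferase that adds sugars to proteins, was at 22.6, 15 and 34.8 in the supernatant at 9am and 94.8, 45.0 and 47.6 at 9pm, which were apart (difference -2.11). Heat shock genes and mitochondrial chaperonins were 0.04 below all genes, and 0.26 above without pool 3 of 9pm, with 31 of 32 tested, and Hspe1 alone was past the unadjusted threshold.

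Proteins that the tissue secretes had a median 0.21 above all genes over 41 tested of 44 listed, and 1500015O10Rik alone passed the unadjusted threshold. Without pool 3 of 9pm the median was 0.06 below all genes. Ion and water transport genes were 0.14 below all genes with 27 of 31 tested. Their one member past the unadjusted threshold was Fxyd1, a regulator of the sodium pump, at 248, 661 and 333 FPKM in TRAP at 9am and 1133, 589.8 and 498 at 9pm, and at 578, 471 and 322 in the supernatant at 9am and 524, 39.8 and 265 at 9pm (difference 2.18, SE 0.98). Both fractions of Fxyd1 overlapped between times. Tight junction genes (25 of 31 tested) and cadherins, integrins and basement membrane genes (38 of 48) had 0 members past the unadjusted threshold by limma in either direction, with medians 0.11 and 0.19 below all genes. The first turned to 0.34 above without pool 3 of 9am and the second to 0.01 above without pool 1 of 9pm. Leaving out one pool also turned the ion and water transport list, to 0.12 above without pool 2 of 9pm.

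Clock genes were read in the same way, since their messages are known to cycle with the time of day. Of 22 core clock and output genes 20 passed the filter, and 8 had a difference above 0 (40%, against 53.8% of all genes tested). The list's median was 0.43 below that of all genes, between 0.27 and 0.53 below with one pool left out. Tef, a transcription factor driven by the clock, was the only member at an unadjusted p under 0.05. It was at 5.90, 6.33 and 16.7 FPKM in the supernatant at 9am and 68.8, 85.2 and 49.6 at 9pm, and at 16.4, 22.2 and 36.3 in TRAP at 9am and 44.5, 36.2 and 43.8 at 9pm. Its supernatant groups were apart, its TRAP groups touched at 36.2 and 36.3, and the difference was -2.03 with an SE of 0.71. The list's median changes from 9am to 9pm were 0.66 in TRAP and 0.54 in the supernatant, both upward.

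Genes of mTOR signalling, the pathway that sets translation to nutrients, had a median 0.41 below that of all genes with all 40 tested. Their pool medians, relative to all genes, were 0.08, 0.03 and 0.37 at 9am and -0.31, -0.37 and -0.02 at 9pm, and the list's median lay 0.11 to 0.46 below all genes with one pool left out. Prkab1, a regulatory subunit of the AMP-activated kinase, was the one member past the unadjusted threshold, at 16.0, 14.9 and 28.3 FPKM in TRAP at 9am and 6.26, 7.66 and 5.59 at 9pm, with no overlap (difference -2.71, SE 1.22). Immediate early genes (13 of 19 tested) were 0.40 below all genes with none past the unadjusted threshold in either direction by limma. Endocytosis genes were 0.13 above all genes, and 0.14 below without pool 1 of 9am, with Clta, a clathrin light chain, at 1.73. Motile cilium genes were 0.03 below (0.01 above without pool 2 of 9pm) with Rsph9, of the radial spoke, at 1.40 and Ift80, of intraflagellar transport, at 1.88, and none of 19 zinc transporters and metallothioneins tested, of 27, passed the unadjusted threshold. The median of the latter was 0.46 above all genes, and 0.05 above without pool 3 of 9am.

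The genes the study drew from its TRAP comparison of times give the supernatant side that the choice did not use. The 19 genes of secreted proteins drawn for 9am were chosen for a downward TRAP change in these libraries, so their TRAP median change of -0.91 is a description. In the supernatant their median change was 0.12, near the 0.03 of all genes. The choice on TRAP favours a difference below 0, so the sign count and p-values are no independent evidence. For 18 of the 19 it was below 0, and 2 were lower at an unadjusted limma p under 0.05: Epdr1 (-2.64) and Gpc4 (-1.63). Epdr1 was at 14.6, 15.6 and 52.8 FPKM in TRAP at 9am and 1.99, 6.67 and 4.98 at 9pm, with supernatant values between 1.03 and 9.65 at both times. Gpc4, a cell surface proteoglycan gene, was at 39.2, 61.5 and 92.3 in TRAP at 9am and 45.1, 30.6 and 17.8 at 9pm, which overlapped.

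For some abundant members of that list the fitted changes of the 2 fractions were close to each other in the main fit. Hspa5, the main chaperone of the endoplasmic reticulum, had a TRAP change of -0.52 and a supernatant change of -0.52. For Hsp90b1 these were -0.40 and -0.36 and for Pdia3 -0.36 and -0.27, and the sign of all 3 differences turned under some settings. The 95% intervals of the differences were -0.88 to 0.87 for Hspa5, -0.71 to 0.625 for Hsp90b1 and -1.03 to 0.85 for Pdia3. Under the other scalings the difference of Hsp90b1 ran from -0.90 to -0.12. That of Hspa5 ran from -0.37 to -0.08 and that of Pdia3 from -0.36 to -0.16. Kl, the klotho gene, was at 628, 531 and 503 FPKM in TRAP at 9am and 429, 411 and 467 at 9pm, apart, and at 674, 532 and 547 in the supernatant at 9am and 625, 575.5 and 602 at 9pm, which overlapped. Its difference of -0.39 had a 95% interval of -1.05 to 0.27, and all its 9pm pools were below those of 9am.

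The 11 secreted genes drawn for 9pm were chosen for an upward TRAP change, with a TRAP median of 0.94 and a supernatant median of -0.12. The choice favours a difference above 0, which 10 of 11 had, and it was past the unadjusted threshold in Sil1, the nucleotide exchange factor of Hspa5. Sil1 was at 15.2, 61.1 and 10.5 FPKM in TRAP at 9am and 102, 55.6 and 78.4 at 9pm, which overlapped, and at 44.0 to 72.0 and 38.2 to 60.7 in the supernatant (difference 1.89, SE 0.78). Ggh, a lysosomal hydrolase of folates, had a difference of 2.93 and Lbp, a binding protein of bacterial lipopolysaccharide, one of 1.18, neither past the unadjusted threshold. Adamts1, a secreted protease, was the member below 0, since its supernatant change of 1.25 was above its TRAP change of 0.94.

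The 9 barrier and transport genes drawn by the study came from the same TRAP comparison, with a TRAP median of -0.97 and a supernatant median of -0.31, so their direction is likewise fixed in part by the choice. Of these, 8 had a difference below 0 and none was past the unadjusted threshold in either direction by limma. Itgb8, an integrin subunit, was at 132, 138 and 124 FPKM in TRAP at 9am, 53.0, 48.1 and 61.9 at 9pm, 116, 134 and 127 in the supernatant at 9am and 83.9, 94.8 and 86.0 at 9pm. Both fractions were lower at 9pm without overlap, TRAP by more (changes of -1.26 and -0.50), and the difference was -0.76 with an SE of 0.40, not past the unadjusted threshold. Cdh3, P-cadherin, had nearly equal changes of -0.81 and -0.67. Slc30a1, the zinc exporter of the plasma membrane, was the member above 0 at 0.86. The median of these 9 genes was 0.87 below all genes and 0.31 below without pool 3 of 9am.

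**Figure D5:**
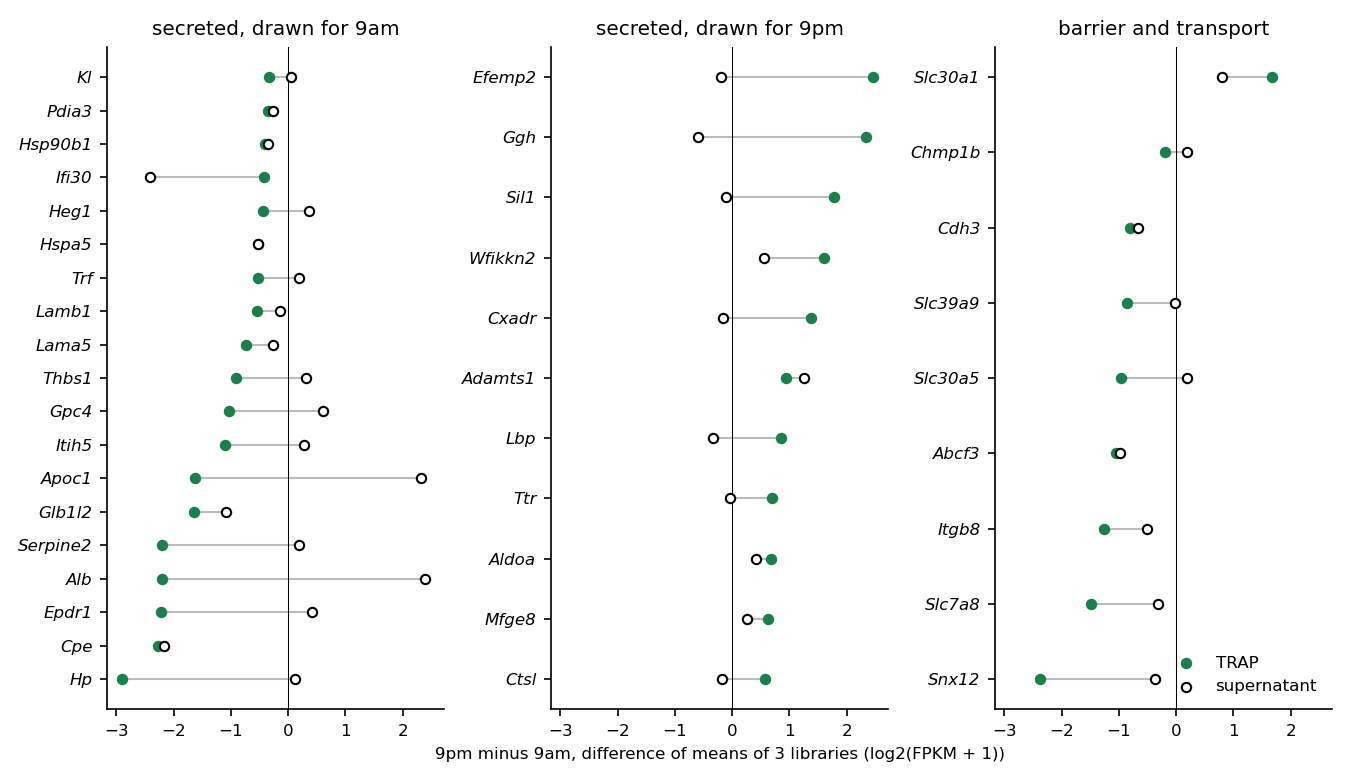
For the genes the study drew from its TRAP comparison of times, filled symbols are the 9pm minus 9am difference of means of log2(FPKM + 1) in TRAP and open symbols the same in the supernatant, with 3 libraries per group. The filled symbols of the secreted genes drawn for 9am lie left of 0, as chosen, while most open ones lie near 0, and for Hspa5, Hsp90b1 and Pdia3 both nearly coincide.

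Choroid plexus epithelium was plain in every library, since its 12 markers summed to 39568 to 73353 FPKM and none was at 0 anywhere. None of the 12 passed the unadjusted threshold in either direction by limma, and their median was 0.14 below that of all genes, and 0.08 above it without pool 2 of 9pm. The 5 erythroid markers in the table summed to 12.8 to 106 FPKM in the supernatant at 9pm, to 0.0811 to 3.64 in that of 9am, and to 0 to 6.49 in TRAP. Of these markers only Hbb-bs was apart between the supernatant groups. Hba-a2 was at 0.374, 62.3 and 0 FPKM in the supernatant at 9pm and at 0 at 9am. Alas2 was at 0, 0.0811 and 3.64 in the supernatant at 9am and 0, 0 and 1.51 at 9pm. Slc4a1 was at 0 in every library. Hbb-bs was the member of that list past the unadjusted threshold. Macrophage markers summed to 44.8 to 70.1 in the supernatant at 9pm, 13.1 to 126 in that of 9am and 0 to 14.8 in TRAP, with Cd68 and Tyrobp at 0 in every library. Their member C1qa, a subunit of complement C1q, was at 14.9, 34.7 and 5.26 FPKM in the supernatant at 9pm, at 0, 0 and 1.06 there at 9am and at 0 in TRAP (difference -3.58, SE 1.17). C1qb and C1qc were likewise highest in the supernatant at 9pm, but each was at 0 in 10 libraries. In contrast, Cd74 was at 50.05, 19.6 and 6.91 FPKM in the supernatant at 9am and 4.37, 7.83 and 13.9 at 9pm. Lyz2 was at 75.6, 4.28 and 0 there at 9am and 11.1, 0.153 and 16.8 at 9pm. The groups of Cd74 and Lyz2 overlapped.

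In bulk tissue, fewer cells of a type and less RNA per cell cannot be told apart. Hepatocyte markers, which include Alb, Apoc1 and Hp of the secreted genes drawn for 9am, summed to 29.9 to 1732 FPKM in TRAP at 9am, with the highest sum in replicate 3, and to 13.3 to 238, 15.1 to 115 and 36.6 to 198 in TRAP at 9pm and the supernatant at 9am and 9pm. Alb, serum albumin, was at 34.0, 0.613 and 171 in TRAP at 9am and 0.157, 0.941 and 42.8 at 9pm, and at 1.38, 13.7 and 0 in the supernatant at 9am and 89.0, 23.2 and 1.34 at 9pm (difference -4.60, SE 2.56). Of the 12 hepatocyte markers 7 passed the filter, 1 was above 0 (14.3%, against 53.8% of all genes tested), and Serpina1a was at 0 in every library. Of 9 fibroblast markers tested 5 were above 0 and 4 below, of 4 mural ones 3 and 1, and of 6 astrocyte ones 4 and 2. One member of each list was higher at an unadjusted p under 0.05, namely Ogn (3.11), Tagln (4.47) and Aldh1l1 (3.92), and 0 were lower, while endothelial, neuronal, oligodendrocyte and ependymal markers had none in either direction by limma. The part of these other cell types in the results was not tested.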

How the data were processed

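RNA from TRAP and from its supernatant was sequenced by the study as single-end reads of ribodepleted SMARTer Pico libraries, aligned to mm10 with STAR 2.4.0, and turned into FPKM with Cuffquant of Cufflinks. The table deposited by the authors holds gene FPKM values, which scale fragments to transcript length and library size, with 1 column per library. The sources used here give no annotation, strand setting or Cufflinks version. Of 24354 named rows, 27 gene names altered into dates by a spreadsheet were dropped. FPKM keeps no read counts, whole reads could not be recovered and the depth is unknown, so no counting interval is given. Summed FPKM was 484734 to 1115758 per library, with 6639 to 10540 genes above 1 FPKM.

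Genes with a mean FPKM above 1 were fitted as log2(FPKM + 1), pseudocount 1, with limma 3.58.1 (R 4.3.3, empirical Bayes with intensity trend, two-sided) over 4 groups of 3 libraries, without covariates. The contrast was TRAP minus supernatant at 9pm, minus the same at 9am, with Benjamini-Hochberg adjustment over all genes tested. A fold on this scale understates the change of low genes. P-values of the main fit, which treated all libraries as independent, measure the spread between single libraries of a group. How much of that spread lay between pools and how much between libraries was not tested. A TRAP and a supernatant library of equal number and time share an animal number in the labels, so a block by pool was an alternative; deviations of paired libraries from their group means had correlations between -0.0751 and -0.0144 across genes. Single values were also tested by exact permutation of the 6 pool differences. The fit was checked on simulated data. Python 3.11.15 with matplotlib 3.10.9 made the figures.

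Members and gene lists were chosen with earlier results of these data known. Named genes were the called ones, those of lowest p up to 10 in each direction, the 10 of lowest p in each direction among genes with a mean FPKM above 100, list members at an unadjusted p under 0.05, and the genes the study names from its TRAP data. Ctdsp2 was added after its values were seen, and 1 gene that the rule names is not reported here. Gene positions were taken from GENCODE M21, which matched 23289 names (95.7%), and mature miRNA sequences from RefSeq GRCm38.p6. Alternatives changed the pseudocount, the filter, the scaling, the variance model and the block, and left out each library. Leaving out each pool was chosen after seeing the data.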

Additional observations from a re-analysis of the deposited data

Results flagged for a closer look

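Mir546 was flagged because the test of the difference itself passed the threshold: its change from 9am to 9pm was 15.31 log2 units higher in TRAP than in the supernatant (adjusted p = 0.0236, limma), with an upward fitted change of 4.56 in TRAP and a downward one of -10.75 in the supernatant. All 3 supernatant libraries of 9pm were below those of 9am, and 2 of the 3 TRAP libraries of 9pm were above the TRAP libraries of 9am. Its host Ctdsp2 had a difference of -2.65, and the division of reads between both was not tested.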

How the results depend on the processing

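Mir546 was the gene called, and it depended on the processing. The count of higher calls was 0 with a pseudocount of 0.1 (lowest adjusted p = 0.138), without a filter on low values (0.406), with small RNA rows left out and FPKM rescaled (0.406, which drops Mir546 by construction), without the intensity trend (0.222) and with robust variance (0.0522), all by limma. It was 1, Mir546, with a pseudocount of 5, a mean FPKM above 5, quantile normalization and median ratio scaling. Leaving out one library or pool gave 0 to 2 higher calls: Mir546 without TRAP replicate 1 or 2 of 9pm, Mir546 and Mrpl52 without pool 1 of 9pm, Scarna17 without TRAP replicate 3 or pool 3 of 9pm, and 0 in all others, with a lowest adjusted p of 0.0516 to 0.624. There were 0 lower calls under every setting run. Each of these changes is given as a value, and the cause was not tested.

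With the pool as a replicate block, the pairing the labels give, 2 genes were called, Mir546 and Mrpl52 (adjusted p = 0.0451 for both, limma). The block with small RNA rows left out gave 0 (lowest adjusted p = 0.0726). The block changed no other call among the named genes.

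Leaving out one library or pool gave 141 to 544 genes higher and 85 to 268 lower at an unadjusted p under 0.05, the extremes being without pool 2 of 9pm and pool 2 of 9am, and without TRAP replicate 1 of 9pm and pool 3 of 9am. Without pool 2 of 9pm the lower genes outnumbered the higher ones, at 215 against 141, and without pool 3 of 9am at 268 against 213. Without TRAP replicate 2 of 9pm both counts were 214. Genes whose pools were apart numbered 768 to 1483 upward and 705 to 1149 downward with a library or pool left out, where fewer pools have to be apart by construction. The median over genes moved by less than the spread between pools in all settings. Of 3147 values of 109 named genes under these settings, 3124 kept their side of the threshold. Only Mir546 was called in the main fit, so for the other genes this was nearly fixed beforehand. Mir546 lost its call in 19 of its 27 values, and 0 of them reversed. For other genes 4 values passed the threshold. The sign changed in at least one setting for 12 genes that were not called (Glb1l2, Ifi30, Cpe, Hspa5, Hsp90b1, Pdia3, Adamts1, Aldoa, Cdh3, Abcf3, Chmp1b and Slc30a1). Among 920 medians of 37 gene lists, 831 moved by less than the spread between pools. The unknown depth and 3 pools per time limit every value here.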

Other observations

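RNAs that do not code for protein gave values outside the gene groups of the report. Of 12 nuclear long noncoding RNAs, 7 passed the filter and 2 of these had a difference above 0 (28.6%, against 53.8% of all genes tested). The median of these RNAs was 0.56 below that of all genes, with 0 members past the unadjusted threshold by limma. Their summed FPKM was 3666 to 4164 in the supernatant at 9am and 2579 to 4420 at 9pm, and 226 to 348 in TRAP over both times. Of 119 small nucleolar and Cajal body RNAs, 24 passed the filter, and Scarna17 was the one member past the unadjusted threshold. Their summed FPKM ran from 133 to 36010 over the 12 libraries. For 21 of 66 replication-dependent histone genes that passed the filter the median was 0.41 above that of all genes, and 0.30 below it without pool 3 of 9am, with 0 members past the unadjusted threshold by limma.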
